A study of Homo sapiens with 42 samples.

Results

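EK and WT cells differed in the form of NSD2 they overexpressed: NSD2 with the E1099K substitution (EK) or unmutated NSD2 (WT). The comparison was made within 2 human B-cell acute lymphoblastic leukemia (B-ALL) lines, 697 and Reh. It used 10 RNA-seq libraries of the 42 in the series, taken by their labels alone: 3 EK and 3 WT libraries of 697, and 2 EK and 2 WT libraries of Reh. Each EK library was set against the WT library of the same line and replicate number, which gave 5 pairs. The 3 and 2 libraries of 697 and Reh with an empty vector (EV) gave the level without added NSD2. The rest of the study knocked NSD2 down in other B-ALL lines and is not described here. All arms of a line carried a vector, and the EV libraries also held NSD2 transcript of their own. The sources used here give neither the vector and its promoter, nor whether an arm was 1 clone, nor whether replicates of an arm came from separate cultures. The p-values therefore cover the spread between these libraries alone, which may be technical.

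NSD2 is a histone methyltransferase that places methyl groups on lysine 36 of histone H3, mostly up to the dimethyl state, a mark found over active genes and known to oppose methylation of lysine 27 on the same histone. E1099K replaces a glutamate by a lysine in the catalytic SET domain. It recurs in childhood acute lymphoblastic leukemia and is known from enzyme assays to make NSD2 more active. Both lines come from B-cell precursor leukemia. The site of the substitution is shown because it is the whole designed difference between the arms. It is on chromosome 4 in the reference transcript of GENCODE release 29, coding bases 3265 to 3327 of 4095 on the coding strand, with the codon of the substituted glutamate in capitals.
NSD2 coding sequence: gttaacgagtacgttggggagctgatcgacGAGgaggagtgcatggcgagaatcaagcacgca

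Read depth was 40664735 to 55072911 reads in genes per library in 697 and 23688482 to 27244031 in Reh. In B-lineage identity, the libraries matched their label: 9 of 9 B-lineage markers averaged at least 10 normalized counts in 697 and 8 of 9 in Reh, where VPREB1, a pre-B-cell receptor component, was at 0. Their sum was 135402 to 163260 in 697 EK, against 142413 to 177065 in 697 WT, and 272533 to 302881 in Reh EK, against 270819 to 312380 in Reh WT. Of the T and NK cell markers, 3 of 6 reached that level in each line (CD247, LCK and NKG7), and of the erythroid markers 0 of 4 did. Of 5 myeloid markers, CSF1R reached it in 697 and CSF1R and MPO in Reh, with ELANE at 0 there. The myeloid sum was 145 to 186 in 697 EK, against 169.9 to 208 in 697 WT, and 352 to 538 in Reh EK, against 315 to 426 in Reh WT. The T and NK sum was 1891 to 3099 in 697 EK, against 2036 to 3359 in 697 WT, and 462 to 563 in Reh EK, against 399 to 504 in Reh WT. One library stood apart: 697 EK replicate 2 had 0.732% of its reads on mitochondrially encoded genes, while the 5 other EK and WT libraries of 697 had 0.226% to 0.370% there. Without it the count of genes that passed stayed at 0 over both lines, at 0 in 697, at 1 in Reh and at 0 for the difference between lines.

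NSD2 transcript (listed under the older symbol WHSC1) was far above EV in both arms, and EK and WT did not differ beyond their spread. The authors' normalized counts, which are reads divided by a factor per library, were 102025, 84869.7 and 70828 in 697 EK, 110659, 87706 and 80839 in 697 WT and 10854, 10725 and 7723 in 697 EV. In Reh they were 60833 and 50068 in EK, 57284 and 53369 in WT and 19242 and 19079 in EV. The EK and WT values overlapped in both lines, and both arms lay above every EV library. The EK minus WT difference over the 5 pairs was -0.07 ± 0.08 (SE) on the log2 scale of normalized count + 1, with a 95% interval of -0.26 to 0.11. The adjusted p was 0.991 in limma, and an exact two-sided sign-flip permutation test over the 5 pairs gave p = 0.1875, where 0.0625 is the smallest that 5 pairs allow. The estimate was -0.12 ± 0.11 in 697 and -0.00 ± 0.13 in Reh. EK cells had 4 pairs of 5 below WT, the exception being Reh pair 1 at 0.09. These reads do not tell the 2 alleles apart, because the tables hold reads per gene.

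**Figure D1:**
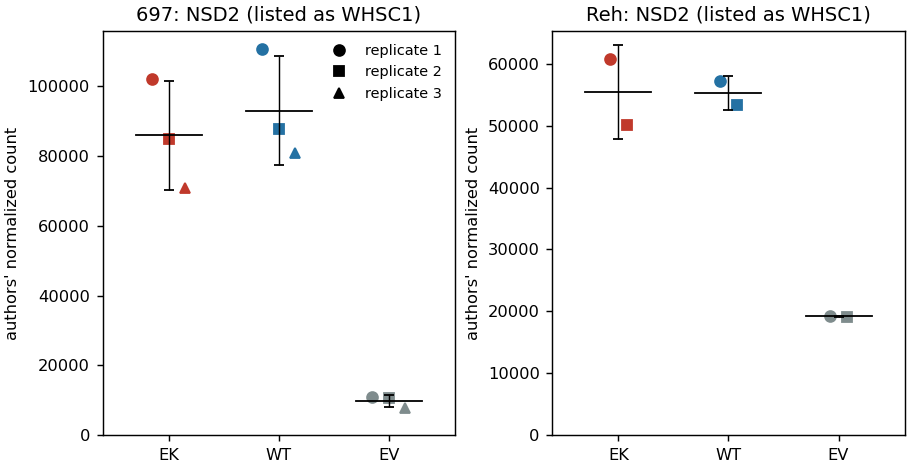
NSD2 transcript as the authors' normalized count (vertical axis, linear from 0) in EK, WT and EV libraries of 697 (left) and Reh (right). Points are libraries, with the shape giving the replicate number, and lines and bars are the mean and SD. EK and WT points overlap in both lines, with means of 85908 in EK and 93068 in WT of 697, and both arms lie above EV.

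Over both lines, no gene passed the test for a difference between EK and WT. limma with line and replicate number as blocks called 0 of 14327 genes higher in EK and 0 lower (0% in each direction) at a Benjamini-Hochberg adjusted p under 0.05. At an unadjusted p under 0.05, 319 genes were higher in EK (2.23%) and 259 lower (1.81%), in all 578 (4.03%). Run on the whole reads behind the normalized counts, edgeR's quasi-likelihood test called 0 genes and DESeq2 called 5, all higher in EK: CREB5, a bZIP transcription factor, and 4 small structural RNA genes or their pseudogenes (RNU4-1, RNA5-8SP3, RN7SL11P and RNA5-8SP6). EK was above WT in all 5 pairs for 436 genes (3.04%) and below it in all 5 for 452 (3.15%). Of the 32 sign patterns that 5 pairs can have, 1 puts EK above WT in every pair and 1 below. One sign in all 5 pairs is therefore not by itself a sign of a difference.

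The intervals show how closely EK minus WT was estimated for single genes. For 13743 of the 14327 genes (95.9%), the 95% interval of EK minus WT lay within 2-fold in either direction, and for 80.6% it lay within 1.5-fold. Among the 11746 genes that averaged at least 100 normalized counts in the higher arm of a line, 98.8% had an interval within 2-fold. The median distance from an estimate to either end of its interval was 0.21 on the log2 scale. In single lines the intervals were wider, with 89.8% of genes within 2-fold in 697 and 83.9% in Reh. At this depth and replication, a difference smaller than the distance to the end of its interval could not be told from 0. These intervals are per gene and not adjusted for the number of genes tested, so larger differences could also fail to pass. RN7SL11P over both lines, at 1.96 with an interval of 1.34 to 2.58, had an adjusted p of 0.341 in limma.

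**Figure D2:**
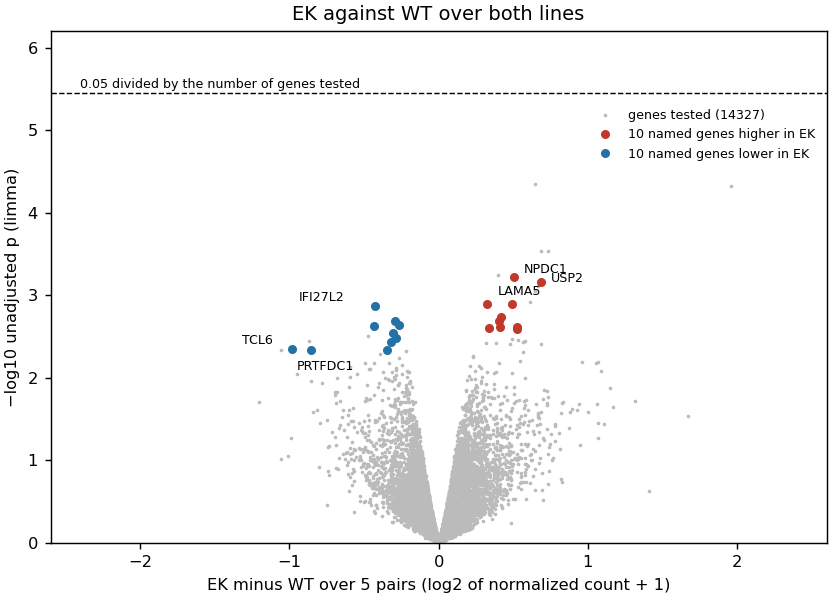
EK minus WT over 5 pairs on the log2 scale of normalized count + 1 (horizontal axis) and −log10 of the unadjusted limma p (vertical axis) for 14327 genes. Coloured points are the named genes with 1 sign in all 5 pairs, red for higher and blue for lower in EK. No point reaches the dashed line, 0.05 divided by the number of genes tested.

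Whole transcriptomes of libraries were then compared by their distance, which depended on whether the replicate number was shared. The root mean square log2 difference over genes that averaged at least 100 normalized counts, NSD2 left out, was 0.208 to 0.402 between EK and WT libraries of one number in 697 (mean 0.290, 3 pairs) and 0.182 to 0.265 in Reh (mean 0.224, 2 pairs). At different replicate numbers, EK and WT libraries were 0.431 apart on average in 697 and 0.396 in Reh, against 0.413 and 0.370 between libraries of the same arm. EK and EV libraries of one number were 0.329 apart on average in 697 and 0.297 in Reh. WT and EV libraries of one number were 0.262 and 0.253 apart in these lines. The widest EK and WT pair was 697 pair 2, which holds the library with the high mitochondrial share. That library, 697 EK replicate 2, was 0.402 to 0.583 from each other library of 697. It was 0.426 from EV replicate 2, while WT replicate 2 and EV replicate 2 were 0.228 apart. What set this library apart was not tested.

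**Figure D3:**
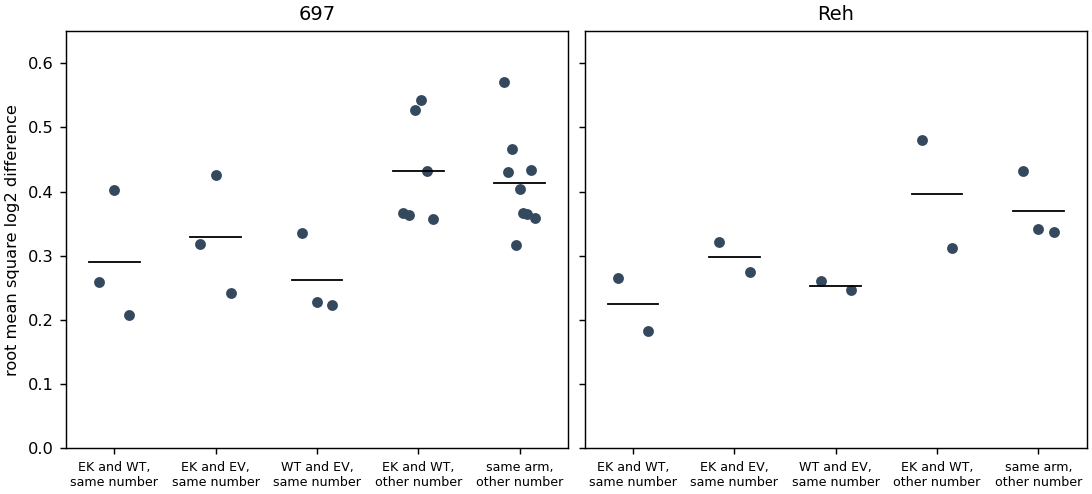
Root mean square log2 difference between 2 libraries of a line (vertical axis, linear from 0), for 697 (left) and Reh (right). Points are pairs of libraries and lines their means. The EK and WT pairs of one replicate number average 0.290 in 697 and 0.224 in Reh, against 0.329 and 0.297 for EK and EV pairs of one number. At different numbers, EK and WT pairs average 0.431 and 0.396, against 0.413 and 0.370 for same-arm pairs.

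The named genes nearest to a difference over both lines are given as values, since none passed. They were taken from genes of 1 sign in all 5 pairs, which is why their pairs agree in sign. At least 100 normalized counts in 1 line were required, and small RNAs, pseudogenes and genes with clone names were left out. Of the rest, the 10 in each direction with the smallest unadjusted p are given, all with an adjusted p of 0.991 in limma. Among the genes left out, RNA5-8SP6 and RN7SL11P had smaller p-values, with an adjusted p of 0.341 in limma. NPDC1, a neural membrane protein, had 359, 489.6 and 463 normalized counts in 697 EK libraries, against 255, 365 and 369 in 697 WT libraries, and 167 and 252 in Reh EK libraries, against 121 and 141 in Reh WT libraries. Every EK library was above its WT partner, and the arms did not overlap in Reh. Its difference over both lines was 0.51 ± 0.10. NPDC1 had 396, 496 and 532 in 697 EV, above EK at each number, and 86.6 and 109 in Reh EV, below WT at each number. USP2, a deubiquitinating enzyme, had 241, 499 and 371 normalized counts in 697 EK libraries, against 174, 300.1 and 299 in 697 WT libraries, and 39.3 and 38.0 in Reh EK libraries, against 19.4 and 19.2 in Reh WT libraries. Its Reh values did not overlap and lay near 2-fold apart, while in 697 the replicate numbers spread more than the arms. Its difference was 0.69 ± 0.14, with a 95% interval of 0.38 to 1.00.

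CREB5 had 2724, 4468 and 4679 normalized counts in 697 EK libraries, against 1745, 2114 and 3681 in 697 WT libraries, and 16.9 and 13.1 in Reh EK libraries, against 13.3 and 11.0 in Reh WT libraries. The gene was near the limit of the test in Reh, and its difference over both lines was 0.52 ± 0.13, with 0.69 ± 0.15 in 697 and 0.28 ± 0.18 in Reh. It is the one named gene that DESeq2 called over both lines, at an adjusted p of 0.0277. ICOSLG, the ligand of the T-cell costimulator ICOS, had 2679, 3432 and 2398 normalized counts in 697 EK libraries, against 2288, 1861 and 2005 in 697 WT libraries, and 762 and 1047 in Reh EK libraries, against 603 and 806 in Reh WT libraries. In 697 the EK values lay above all WT values, and in Reh the arms overlapped. Its difference was 0.42 ± 0.10. ICOSLG had 1970, 1793 and 2132 in 697 EV and 670 and 878 in Reh EV, below EK at each number.
LAMA5, a laminin alpha chain of basement membranes, had 80.8, 149 and 165 normalized counts in 697 EK libraries, against 63.6, 98.0 and 123 in 697 WT libraries, and 222 and 285 in Reh EK libraries, against 163 and 181 in Reh WT libraries. It differed by 0.49 ± 0.11, with EK above WT in each pair. LAMA5 had 113, 187 and 245 in 697 EV, above EK at each number, and 158 and 154 in Reh EV, below WT at each number. GLI1, a transcription factor of Hedgehog signalling, had 91.9, 160.5 and 132 normalized counts in 697 EK libraries, against 72.3, 117 and 99.2 in 697 WT libraries, and 112 and 112 in Reh EK libraries, against 76.3 and 60.3 in Reh WT libraries, at 0.53 ± 0.13. The other genes higher in EK were smaller in estimate: RAB30, a small GTPase of the Golgi, at 0.40 ± 0.10, PCDHGC3, a protocadherin, at 0.41 ± 0.10, SCARF1, a scavenger receptor, at 0.34 ± 0.08, and SGK223, a pseudokinase, at 0.33 ± 0.07. For the 10 genes, the estimates ran from 0.33 to 0.69.

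On the lower side, IFI27L2, of the IFI27 family of interferon-induced genes, had 90.9, 127 and 85.6 normalized counts in 697 EK libraries, against 120.3, 164 and 126 in 697 WT libraries, and 298 and 352 in Reh EK libraries, against 395 and 467 in Reh WT libraries. Its 5 pair differences were close to each other, at -0.40, -0.37 and -0.55 in 697 and -0.41 and -0.41 in Reh, and its estimate was -0.43 ± 0.09. MAN1A1, a Golgi mannosidase that trims N-glycans, had 678, 691 and 722 normalized counts in 697 EK libraries, against 807, 796 and 806 in 697 WT libraries, and 3428 and 4166 in Reh EK libraries, against 4531 and 5109 in Reh WT libraries. The arms did not overlap in either line, and the difference was -0.26 ± 0.06.
TCL6, a noncoding gene of a leukemia breakpoint locus, had the largest estimate of the 10, -0.98 ± 0.26, with 79.8, 47.3 and 41.1 normalized counts in 697 EK libraries, against 163, 67.0 and 43.5 in 697 WT libraries, and 12.6 and 72.5 in Reh EK libraries, against 58.1 and 167 in Reh WT libraries. Its pairs ran from -0.08 in 697 pair 3 to -2.12 in Reh pair 1. PRTFDC1, a paralog of the purine salvage enzyme HPRT1, was below 30 normalized counts in Reh, where its values were 7.02 and 2.38 in EK and 25.4 and 8.22 in WT. In 697 they were 458, 376 and 390.2 in EK and 529.9, 562 and 490.5 in WT, without overlap, and the difference over both lines was -0.86 ± 0.23. NEDD9, a scaffold of cell adhesion signalling, had 550.3, 556 and 285 normalized counts in 697 EK libraries, against 804, 715 and 349 in 697 WT libraries, and 388 and 513 in Reh EK libraries, against 429 and 609.7 in Reh WT libraries. EK was below WT in each pair, at -0.32 ± 0.08. The remaining genes were PDE4D, a cyclic AMP phosphodiesterase, at -0.29 ± 0.07, GPER1, a G protein-coupled estrogen receptor, at -0.35 ± 0.09, TMEM65, a mitochondrial membrane protein, at -0.29 ± 0.07, KIAA0040 at -0.30 ± 0.08 and the noncoding LINC00617 at -0.43 ± 0.10.

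In 697 taken alone, limma called 0 genes higher and 0 lower in EK, with 712 at an unadjusted p under 0.05 (4.97%), 447 higher (3.12%) and 265 lower (1.85%). edgeR called 0 and DESeq2 11, 7 of them higher and 4 lower. SCN3A, the pore-forming subunit of a neuronal sodium channel, had 105, 80.2 and 84.4 normalized counts in 697 EK libraries, 230.1, 187 and 189 in 697 WT libraries and 5.35, 4.02 and 3.14 in 697 EV libraries. The arms did not overlap, and EK lay between WT and EV. Its EK minus WT difference was -1.16 ± 0.16 with a 95% interval of -1.52 to -0.80 and an adjusted p of 0.292 in limma, against 0.0227 in DESeq2. In Reh the difference was 0.14 ± 0.19, with 108 and 76.1 in EK, 86.0 and 78.1 in WT and 87.8 and 49.2 in EV. PTPRK, a receptor tyrosine phosphatase, had 294, 193 and 257 in 697 EK, 421, 312 and 355 in 697 WT and 29.4, 21.1 and 36.6 in 697 EV. It too lay between WT and EV without overlap, at -0.56 ± 0.09 (adjusted p 0.337 in limma, 0.0147 in DESeq2).

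MME, which encodes CD10, the common acute lymphoblastic leukemia antigen, had 777, 442 and 544 in 697 EK, 1134, 662 and 655 in 697 WT and 1769.7, 762 and 622 in 697 EV. EK was below WT in each pair, at -0.46 ± 0.09 (adjusted p 0.866 in limma, 0.0227 in DESeq2), although the arms overlapped across replicate numbers. NR5A1, a nuclear receptor known for its part in steroidogenesis, had 397, 273 and 850.1 in 697 EK, 69.7, 67.0 and 458 in 697 WT and 91.8, 300.4 and 430.2 in 697 EV. Its difference was 1.80 ± 0.27 (adjusted p 0.337 in limma, 2.96e-06 in DESeq2). The EV libraries lay within the range of WT and overlapped that of EK. PTMS, parathymosin, was at 0.58 ± 0.12 and PRKAR2A, a regulatory subunit of protein kinase A with under 30 normalized counts in 697, at 1.36 ± 0.28.

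The count in 697 depended on replicate 1. Without 697 EK replicate 1 or its WT partner, limma called 150 genes in 697, 145 higher in EK and 5 lower. For 118 of the 150, replicate pair 1 had the opposite sign. The median EK minus WT of the 150 was -0.14 in pair 1, 1.20 in pair 2 and 0.54 in pair 3. The 150 were called in 697 on pairs 2 and 3 alone, so their high medians in those 2 pairs follow from that choice. Pair 2 holds 697 EK replicate 2, the library with the high mitochondrial share. In the Reh pairs, the same genes had medians of -0.22 and 0.06. Among them, and chosen after their values were seen, MALAT1, an abundant nuclear noncoding RNA, had 33445, 105095 and 84198 in 697 EK, against 43472, 43788 and 49218 in 697 WT. NEAT1, the noncoding RNA of paraspeckles, had 3017, 9068 and 9630.5 in 697 EK, against 3041, 4040.3 and 4858 in 697 WT. In replicate 1, both were at or below the WT level. SRRM2, also chosen after its values were seen, had 8864, 42721 and 17228 in 697 EK, against 10701, 11243 and 10412 in 697 WT. SPEN, chosen likewise, had 3543, 14882 and 4877 in 697 EK, against 3660, 3678 and 3049 in 697 WT. In SRRM2 and SPEN, EK replicate 2 stood far above EK replicates 1 and 3. SCN3A and PTPRK also passed without replicate 1, at -1.18 and -0.58. Without 697 EK or WT replicate 3 the count was 3, and without replicate 2 it was 0. Across 11271 genes, the EK minus WT differences of 697 pair 1 had a correlation of -0.05 with those of pair 2 and -0.29 with those of pair 3. Pairs 2 and 3 of 697 had 0.43 and the 2 Reh pairs 0.20. Between lines, Reh pair 1 had 0.40 with 697 pair 1, -0.33 with 697 pair 2 and -0.43 with 697 pair 3. Reh pair 2 had 0.18, 0.23 and 0.04 with these. The genes of these correlations share their libraries and are not independent replicates.

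In Reh, 1 gene passed in limma: KCNJ2, an inward-rectifier potassium channel, was higher in EK (0.00698% of genes), and 0 genes were lower. At an unadjusted p under 0.05 there were 707 (4.93%), 407 higher (2.84%) and 300 lower (2.09%). KCNJ2 had 189.6 and 65.4 normalized counts in Reh EK, 50.9 and 27.4 in Reh WT and 52.7 and 19.2 in Reh EV. Both EK values lay above both WT values, and WT overlapped EV. The difference was 1.55 ± 0.15 with a 95% interval of 1.21 to 1.89 and an adjusted p of 0.0425. In 697, where the gene is far more abundant, it had 12776, 13882 and 4818 in EK and 13115, 15624 and 5154 in WT, a difference of -0.10 ± 0.12. DESeq2 called KCNJ2 in Reh at an adjusted p of 3.07e-07, among 13 genes of which 3 were higher, and edgeR called no gene. The limma call was lost without 697 replicate 3, which left 0 genes called in Reh, and without Reh replicate 1, which also left 0. Without 697 replicate 1 the count was 26, and without Reh replicate 2 it was 2. With a Reh replicate left out, 1 pair remains in Reh and the spread comes from the 697 pairs, on the assumption that Reh varies alike, so those 2 counts do not measure the stability of the call in Reh.

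The 3 named genes lower in Reh EK did not pass in limma, each at an adjusted p of 0.112. ZNF506, a zinc-finger protein, had 437 and 581 in Reh EK, 912 and 984 in Reh WT and 1296 and 1529.5 in Reh EV, so that the arms did not overlap and EK lay farthest from EV. Its difference was -0.91 ± 0.12. LINC00616, a noncoding RNA, had 50.6 and 166 in Reh EK, 138 and 475 in Reh WT and 7.53 and 38.4 in Reh EV, which put EK between WT and EV at each replicate number. Its difference was -1.47 ± 0.19. GPRIN3, a G protein-regulated neurite gene, was below 20 normalized counts in Reh and differed by -1.01 ± 0.13.

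The test of the difference between lines, EK minus WT in 697 minus EK minus WT in Reh, called 0 genes in limma, with 581 at an unadjusted p under 0.05 (4.06%), 309 higher (2.16%) and 272 lower (1.9%). edgeR called 0 and DESeq2 11. KCNJ2 came closest, at -1.65 ± 0.19 with an adjusted p of 0.201 in limma, followed on that side by SCN3A at -1.31 ± 0.25 and CPED1 at -1.52 ± 0.30. CPED1 was below WT in all 3 pairs of 697 (61.6, 65.8 and 63.9 in EK, against 94.997, 116 and 101 in WT) and above WT in both pairs of Reh (87.1 and 64.2 in EK, against 42.4 and 41.1 in WT). On the other side were GPRIN3 at 1.25 ± 0.16, TMEM178B at 1.15 ± 0.17 and FAM19A5, a secreted neural peptide, at 2.50 ± 0.40. Without 697 EK replicate 1 this count was 15, without its WT partner 16, and without Reh replicate 2 it was 1. For genes that did not pass, a difference between lines was not shown.

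Genes that differed between the NSD2 arms and EV were then read for EK against WT. They were chosen on the mean of EK and WT against EV in a line, a contrast that does not use EK minus WT, at 2-fold or more on the log2 scale of normalized count + 1 and a limma adjusted p under 0.05. Of 14292 genes, 77 were raised in 697 (0.539%) and 23 lowered (0.161%), and 106 were raised in Reh (0.742%) and 38 lowered (0.266%), with NSD2 itself left out. None of those that entered the EK against WT test, 77 and 21 in 697 and 106 and 31 in Reh, passed it. EK was below WT for 47 of the 77 raised in 697 (61.0%, against 57.8% of all genes tested), with a median of -0.17, against -0.03 over all genes. EK was above WT for 16 of the 21 lowered genes (76.2%, against 42.2% of all genes), with a median of 0.16. In Reh, EK was below WT for 70 of the 106 raised genes (66.0%, against 43.4% of all genes), with a median of -0.13, against 0.03 over all genes. It was also below WT for 23 of the 31 lowered genes (74.2%), with a median of -0.29.

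By pair, the raised genes of 697 had medians of -0.18, -0.17 and 0.00, and those of Reh -0.15 and -0.14. The lowered genes of 697 had pair medians of -0.04, 0.31 and 0.08, with pair 1 on the other side of 0 and the highest in pair 2, which holds the library of high mitochondrial share. Those of Reh had -0.46 and -0.25. These sets depended on single EV libraries, since each line has few. Without 697 EV replicate 1, 46 genes were raised and 8 lowered in 697, and without EV replicate 2, 14 were lowered. Without Reh EV replicate 2, 63 were raised in Reh, and without EV replicate 1, 15 were lowered.

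**Figure D4:**
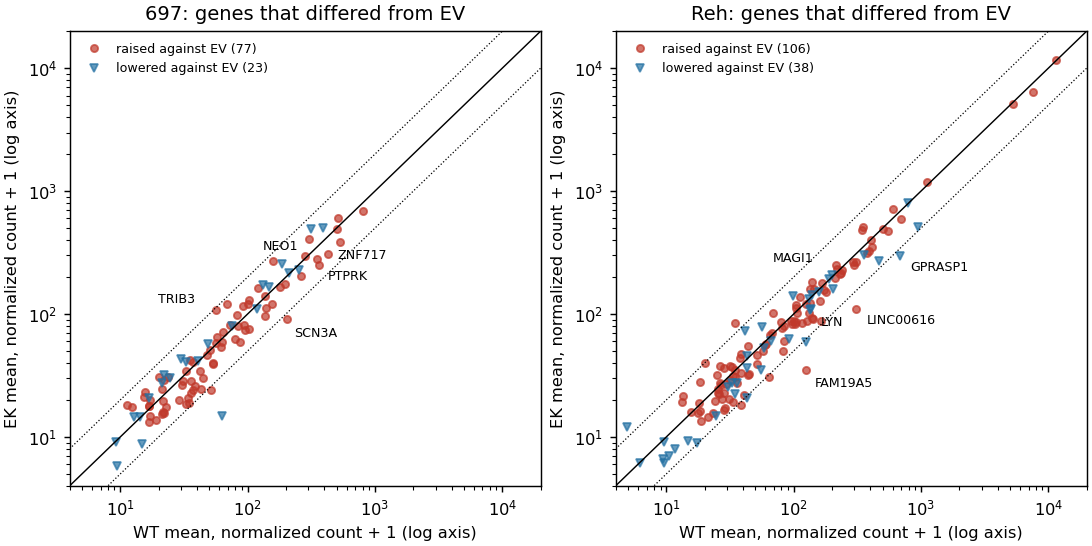
Mean normalized count + 1 in EK (vertical axis, log) against WT (horizontal axis, log) for genes raised (circles) or lowered (triangles) by the mean of EK and WT against EV, in 697 (left) and Reh (right). The solid line marks equal levels and the dotted lines 2-fold differences. Most points lie between the dotted lines, with SCN3A in 697 and FAM19A5 and LINC00616 in Reh among the raised genes under the lower dotted line.

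The 8 raised genes of 697 with the largest change against EV, SCN3A among them, had EK minus WT estimates below 0. NEO1, a netrin receptor, had 275, 315 and 254 in EK, 439, 347 and 259 in WT and 19.6, 18.1 and 13.6 in EV. The arms overlapped, and the EK minus WT difference was -0.28 ± 0.13. ZNF717, a zinc-finger protein, had 411, 355 and 163 in EK, 679, 479 and 130.4 in WT and 7.13, 11.1 and 4.19 in EV, a difference of -0.28 ± 0.18 with pairs of both signs. KCNMB4, a subunit of calcium-activated potassium channels, had 74.7, 60.7 and 39.9 in EK, 94.997, 93.0 and 72.8 in WT and 5.35, 6.03 and 3.14 in EV. EK was the lower in each pair, at -0.60 ± 0.15. CALCRL, the receptor of calcitonin gene-related peptide, was at -0.33 ± 0.22, the noncatalytic protein kinase A subunit gene PRKAR2B at -0.44 ± 0.21, ODF2L at -1.06 ± 0.24 and VNN2, a pantetheinase, at -0.49 ± 0.28. Leaving out single libraries moved NEO1 between -0.41 and -0.08, ZNF717 between -0.58 and -0.06 and PRKAR2B between -0.70 and -0.10. TRIB3, a pseudokinase induced by cell stress and a raised gene of smaller change, had 184, 58.6 and 78.7 in EK, 62.8, 48.0 and 55.8 in WT and 16.9, 26.1 and 42.9 in EV, at 0.77 ± 0.22 (unadjusted p 0.00677).

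Lowered genes of 697 included the homeobox genes HOXA5 and HOXA6, which act in blood progenitors. HOXA5 had 18.2, 72.0 and 31.9 in EK, 12.2, 77.0 and 31.2 in WT and 77.6, 195 and 77.5 in EV. The EV libraries were above both arms at each number, and EK minus WT was 0.16 ± 0.20. HOXA6 was at 0.07 ± 0.26, EGFL7, a secreted factor of blood vessels, at 0.75 ± 0.26 (between 0.32 and 1.08 with single libraries left out, lowest without replicate 1), PRSS57, a granule serine protease, at 0.50 ± 0.19, LRRC3B at 0.15 ± 0.24 and GNG12, a G protein gamma subunit, at 0.01 ± 0.15. EGFL7 had 2.02, 25.7 and 31.9 normalized counts in 697 EK, against 0, 17.0 and 30.2 in 697 WT. Its largest pair difference, 1.59, came from replicate 1, where the gene was near 0. AP1M2 and NFE2L3 were under the minimum of 10 in the EK and WT libraries of 697 and had no EK against WT test.

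In Reh, 7 of the 8 raised genes with the largest change had estimates below 0, TSPAN12 being the exception. MAGI1, a scaffold of cell junctions, had 215 and 244 in EK, 208 and 267 in WT and 6.27 and 16.8 in EV. The arms overlapped, with a difference of -0.04 ± 0.12. PLXNA2, a semaphorin receptor, had 57.6 and 95.1 in EK, 81.1 and 79.5 in WT and 3.76 and 0 in EV, at -0.12 ± 0.17. DOCK3, a guanine nucleotide exchange factor of neurons, was at -0.47 ± 0.37, the zinc-finger factor ZNF521 at -0.29 ± 0.36, the neural adhesion gene CNTN5 at -0.39 ± 0.31, TSPAN12, a tetraspanin, at 0.53 ± 0.40, KLHL32 at -0.49 ± 0.24 and TBC1D8B at -0.997 ± 0.25. FAM19A5 had 22.5 and 45.2 in EK, 105 and 142 in WT and 5.02 and 10.8 in EV. EK lay between WT and EV without overlap, at -1.91 ± 0.31 (adjusted p 0.168).

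Among the genes lowered in Reh, LYN, a SRC-family kinase of B-cell receptor signalling, had 118 and 98.6 in EK, 145 and 129 in WT and 454 and 279 in EV. EK was lowest at each number, at -0.34 ± 0.12 with an unadjusted p of 0.0174. GPRASP1, a sorting protein of G protein-coupled receptors chosen after its values were seen, had 232 and 357 in EK, 655 and 703 in WT and 996 and 1151 in EV, with EK lowest in both replicates, at -1.24 ± 0.20 (adjusted p 0.168 in limma, 0.00314 in DESeq2). CTPS2, a CTP synthase, was at -1.03 ± 0.23 and the parathyroid hormone receptor gene PTH1R at -1.17 ± 0.31. Without Reh replicate 1 they were at -0.46 and -0.70, and without Reh replicate 2 at -1.60 and -1.64. The other estimates were IRAK3, an inhibitor of Toll-like receptor signalling, at 0.04 ± 0.23, RNF182, a ubiquitin ligase, at 0.08 ± 0.20 and KIAA0226L at -0.25 ± 0.29. FAT1 and YPEL4 were under the minimum in Reh and were not tested there.

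Raised in both lines were 9 genes, 11.7% of the 697 set and 8.49% of the Reh set: CTSG, FBXO39, MDH1B, PCNXL2, RELN, SCN8A, TSPAN12, TTC18 and ZNF521. For 3 of them, MDH1B, SCN8A and ZNF521, EK was below WT in all 5 pairs, with differences over both lines of -0.43 ± 0.17, -0.41 ± 0.17 and -0.58 ± 0.23. SCN8A, a sodium channel subunit like SCN3A, had 43.4, 54.5 and 16.0 in 697 EK, 65.4, 63.0 and 28.4 in 697 WT and 5.35, 3.01 and 4.19 in 697 EV. In Reh it had 73.0 and 91.5 in EK, 101 and 93.2 in WT and 8.78 and 7.20 in EV. RELN, an extracellular matrix protein of the developing brain, was at -0.55 ± 0.24. Lowered in both lines were LRRC3B and PTH1R, 8.70% of the 697 set and 5.26% of the Reh set. None of these passed in the EK against WT test (limma adjusted p 0.991 for SCN8A).

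Gene lists fitted to leukemia biology were then read for EK against WT over both lines. In 27 lists, none of the members that could be tested passed in either direction, against 0% of all genes. In the 22 lists with at least 10 tested members, the median EK minus WT ran from -0.10 to 0.54, against -0.00 over all genes. In 26 of the 27 lists, the 5 pair medians had both signs.
The exception was the list of stromal and epithelial markers, of which 3 were tested, led by PDGFRB, a growth factor receptor (0.21 ± 0.06, unadjusted p 0.00715). COL1A1 was the one of 5 fixed stromal and epithelial markers to average at least 10 normalized counts in either line, and DCN was at 0 in both. The sum of those 5 markers was 175 to 322 in 697 EK, against 168 to 190.0 in 697 WT, and 128 to 151 in Reh EK, against 129 to 178 in Reh WT. Their part in any result was not tested.

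**Figure D5:**
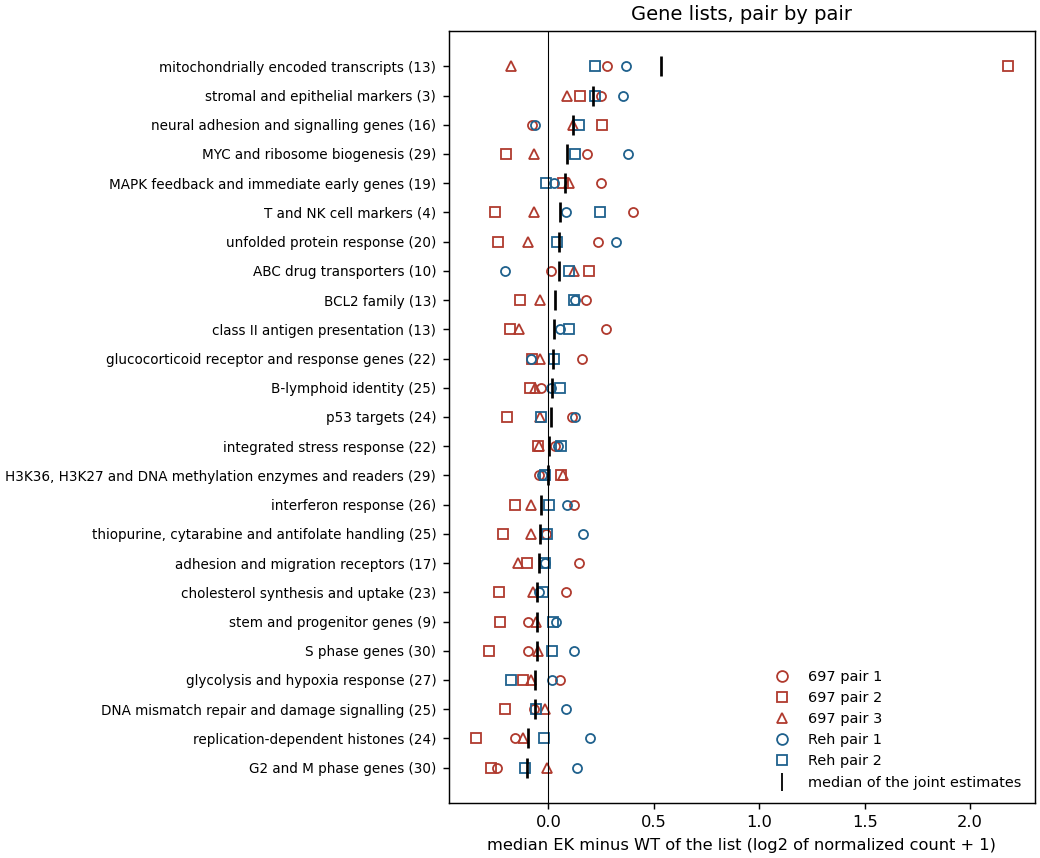
Median EK minus WT of each gene list on the log2 scale of normalized count + 1 (horizontal axis), list by list (vertical axis, tested members in brackets; lists with under 3 are left out). Open symbols are the 5 pairs and black ticks the medians of the joint estimates. The mitochondrially encoded transcripts stand at 2.18 in 697 pair 2 and at -0.18 in 697 pair 3, and most other lists straddle 0.

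Among chromatin genes, the list of H3K36, H3K27 and DNA methylation enzymes and their readers had 15 of 29 tested members above 0 and 14 below, with a median of 0.00 that lay below 0 under median centring. SMYD2, a lysine methyltransferase, was at -0.13 ± 0.06 and DNMT3B, a DNA methyltransferase, at -0.14 ± 0.08. Replication-dependent histones were below 0 for 23 of 24, with a median of -0.10. Their pair medians were -0.16, -0.35 and -0.12 in 697 but 0.20 and -0.02 in Reh.
Cell cycle lists lay on the same side: 24 of 30 S phase genes and 25 of 30 G2 and M phase genes were below 0, with medians of -0.06 and -0.10. POLD3, a DNA polymerase delta subunit, was at -0.17 ± 0.07 and NUSAP1, a spindle protein, at -0.18 ± 0.08. In 697 pair 2, the pair with the high mitochondrial share, the S phase median was -0.28 and the G2 and M median -0.27. Without that library or its partner, the S phase median over both lines was 0.0031 and the G2 and M median -0.067.

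B-cell identity genes were split, with 14 of 25 above 0 and a median of 0.01 (-0.0005 under median centring). The members with the smallest p were MME at -0.27 ± 0.10 and RAG2, of the recombinase that joins immunoglobulin gene segments, at -0.17 ± 0.07. Class II antigen presentation had a median of 0.03 and the interferon response -0.03. Among adhesion receptors (median -0.05), ITGA6, an integrin, was at -0.14 ± 0.07. Neural adhesion and signalling genes had 12 of 16 above 0 and a median of 0.12, although the 2 with the smallest p, PTPRK and SCN3A, were below 0. Without 697 EK replicate 2 that median was -0.0048. Stem and progenitor genes had a median of -0.05.

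Genes of drug response were close to 0. In the list of thiopurine, cytarabine and antifolate handling, 11 of 25 were above 0 and the median was -0.04, with ATIC, a purine synthesis enzyme, at 0.29 ± 0.10. Glucocorticoid receptor and response genes had 12 of 22 above 0 and a median of 0.02. BCL2L11, the proapoptotic BIM gene, which belongs to that list and to the BCL2 family list, had 3008, 4763 and 2684 normalized counts in 697 EK libraries, against 2662, 2904 and 2329.6 in 697 WT libraries, and 1019 and 1124 in Reh EK libraries, against 963 and 918 in Reh WT libraries. EK was above WT in each pair, 697 pair 2 standing highest at 0.71, and the estimate was 0.29 ± 0.09 with an unadjusted p of 0.00993. PER1, a clock gene that glucocorticoids induce, was at 0.30 ± 0.10, or 0.17 without 697 EK replicate 2, and BBC3, the p53 target PUMA, at 0.28 ± 0.09. ABC drug transporters had 6 of 10 above 0, with ABCG2 at -0.25 ± 0.10. DNA mismatch repair and damage signalling genes were below 0 for 21 of 25, with a median of -0.06 and EXO1, an exonuclease of mismatch repair, at -0.12 ± 0.08.

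Growth and stress lists gave small medians too. MYC and ribosome biogenesis genes were above 0 for 25 of 29 (median 0.09), with pair medians of 0.18, -0.20 and -0.07 in 697 and 0.38 and 0.13 in Reh. SRM, spermidine synthase, was at 0.26 ± 0.08 over both lines and 0.45 ± 0.11 in Reh. The unfolded protein response was above 0 for 16 of 20 (median 0.05), with HSPA5, the endoplasmic reticulum chaperone BiP, at 0.29 ± 0.10. Glycolysis and hypoxia genes were below 0 for 23 of 27 (median -0.06), with BNIP3L, a mitophagy receptor, at -0.20 ± 0.06, and cholesterol genes for 18 of 23 (median -0.05), with STARD4, a cholesterol carrier, at -0.22 ± 0.07. p53 targets, at 0.01, and the integrated stress response, at 0.00, had medians that median centring put below 0. MAPK feedback genes had 0.08, with EGR1 at 0.44 ± 0.15. The 697 pairs of EGR1 were at 0.28, 0.55 and 0.39. In Reh, EGR1 had 1191 and 14.3 normalized counts in EK, against 1169 and 6.85 in WT. Its Reh pairs were at 0.03 and 0.96, the larger one in replicate 2, where the gene had few reads. For PCK2, of the integrated stress response, 697 EK replicate 2 stood apart: the EK libraries of 697 had 5219, 14932 and 4667, against 3918, 3501 and 4646 in WT. The 13 mitochondrially encoded transcripts had a joint median of 0.54 that fell to 0.18 without 697 EK replicate 2. Markers of T and NK cells (4 tested), erythroid and megakaryocytic cells (2) and myeloid cells (1) had medians of 0.05, -0.04 and 0.05.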

How the data were processed

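Libraries were stranded and made from total RNA depleted of ribosomal RNA, per the labels' protocols. The submitters' processing notes name Trimmomatic, STAR, featureCounts and the hg19 build. Their versions, the strand setting and the method of scaling were not among the sources used here. The values used are the signal that the authors deposited as normalized counts, that is, reads per gene divided by a factor per library. Divided by what 1 read is worth, 100% of them came out whole within 0.001 reads (in 3 columns of 697, that worth is within 1% of 1 and could not be checked separately, which bears on the edgeR and DESeq2 counts there), and for Reh these equal the raw counts that the authors deposited. Columns of 3 further Reh replicates match no sample and were not used.

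The 57820 genes were joined by symbol. limma 3.58.1 (R 4.3.3, eBayes with trend) was fitted to log2(normalized count + 1) for genes that averaged at least 10 in each line, with line and replicate number as 5 blocks, calls being made at a Benjamini-Hochberg adjusted p under 0.05. The per-line and between-line values came from the same 10 libraries with arm nested in line. Added constants understate the change of low genes. Same-numbered EK and WT libraries deviated together (correlations of 0.462, 0.556 and 0.544 in 697 and 0.556 in Reh), so the numbers pair them in 697, and the block was kept in both lines. Scripts were tested on simulated data. edgeR 4.0.16 and DESeq2 1.42.0 on whole reads, a fit without the block, other pseudocounts, filters and scalings, added EV libraries, equal weights for the lines and each library left out were alternatives.

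Named were NSD2, up to 10 genes per direction over both lines, 3 per line and for the difference between lines, 8 per set of NSD2-responsive genes and direction, and 2 per list, by smallest p or largest change. Pseudogenes, clones and small RNAs were not named by this rule. The comparison, lists and tests were chosen with earlier results of these data known. PECAM1 and CD99 of the lists matched no symbol, and some list members are not reported here. Genes that share sequence with close copies, and overlapping genes, may exchange reads.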

Additional observations from a re-analysis of the deposited data

Results flagged for a closer look

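For 3 gene lists with at least 3 tested members, every pair of 697 had a median EK minus WT of one sign and every pair of Reh the opposite sign. The difference between lines was not tested for these lists, and no list member passed the test over all genes. S phase genes had pair medians of -0.10, -0.28 and -0.05 in 697 and 0.12 and 0.02 in Reh. Their list median was -0.13 in 697 and 0.07 in Reh, a difference of -0.20, and the differences of the next 2 lists are taken alike. Stem and progenitor genes had -0.10, -0.23 and -0.06 in 697 and 0.03 and 0.02 in Reh, a difference of -0.18. B-lymphoid identity genes had -0.04, -0.09 and -0.06 in 697 and 0.01 and 0.05 in Reh, a difference of -0.051. The 1 tested myeloid marker, CSF1R, a growth factor receptor, had -0.26, -0.31 and -0.16 in 697 and 0.58 and 0.40 in Reh. The whole transcriptome also sat lower in 697 (median -0.03) than in Reh (0.03).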

How the results depend on the processing

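The count over both lines stayed at 0 under every limma and edgeR alternative, each library left out in turn included, and was 5 with DESeq2, a fit with the replicate block on whole reads. In 697 the count was 1 with no low-value filter, 11 with DESeq2 and 0 to 150 with single libraries left out. In Reh the 1 call became 0 with no replicate block, a pseudocount of 10, a minimum mean of 50, median centring, TMM scaling, and edgeR with or without the replicate block. It became 24 with no filter, 22 with the EV libraries added, 13 with DESeq2 and 0 to 26 with single libraries left out. The count between lines was 1 with no filter, 2 with EV added, 11 with DESeq2 and 0 to 16 with single libraries left out. Intervals within 2-fold covered 57.2% of genes with no filter. The cause was not tested, except that removing the filter adds genes of few reads.

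Of the genes set against EV, 697 raised numbered 45, 30 and 43 and 697 lowered 2, 10 and 11 with no replicate block, a mean of at least 50 and a pseudocount of 10; Reh raised numbered 55 and 39 and Reh lowered 14 and 19 under the first 2 of these. With single libraries left out they ran over 46 to 88 (697 raised), 8 to 29 (697 lowered), 63 to 109 (Reh raised) and 15 to 52 (Reh lowered). Median centring put IRAK3 in Reh at -0.0029. Leaving out single libraries moved 50 of 114 gene estimates by over 1.5 times or across 0, 12 of them across 0: HOXA5 from -0.031 to 0.29, HOXA6 from -0.23 to 0.27, LRRC3B from -0.060 to 0.26, GNG12 from -0.13 to 0.11 in 697, PLXNA2 from -0.49 to 0.26, MAGI1 from -0.13 to 0.045, RNF182 from -0.11 to 0.26, IRAK3 from -0.16 to 0.24, KIAA0226L from -0.60 to 0.092 in Reh, and LCK from -0.022 to 0.15, CIITA from -0.0011 to 0.20, CSF1R from -0.084 to 0.14 over both lines. With 5 pairs, 2 of them in Reh, small differences in genes of few reads were not detectable.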

Other observations

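Small RNA genes, picked out by name after the data were seen, lay above 0 more often than below. Of 237 tested, 155 had EK above WT over both lines, against 7015 of all 14327 genes (median 0.12, against -0.00 over all genes). In limma 0 passed, while 35 were higher and 2 lower at an unadjusted p under 0.05. Over all genes tested, 319 were higher (2.23%) and 259 lower (1.81%) at that threshold. Their pair medians were 0.27, 0.05 and 0.05 in 697 and 0.07 and 0.13 in Reh. RNA5-8SP6, a 5.8S ribosomal RNA pseudogene, had 4036, 4317 and 2282 normalized counts in 697 EK libraries, against 2539.6, 2276 and 1923 in 697 WT libraries, and 2175 and 2249.6 in Reh EK libraries, against 1342 and 1387 in Reh WT libraries. Its difference was 0.65 ± 0.09 (adjusted p 0.341 in limma). The EV values of RNA5-8SP6 were 3307, 1895 and 2363 in 697, which overlap both arms. In Reh they were 2266, above both EK values, and 1501, between the arms. RN7SL11P, a pseudogene of the signal recognition particle RNA, had 20.2, 21.6 and 25.1 normalized counts in 697 EK libraries, against 4.36, 4.001 and 2.84 in 697 WT libraries, and 202 and 203 in Reh EK libraries, against 114 and 48.0 in Reh WT libraries, at 1.96 ± 0.28. The EV values of RN7SL11P were 1.78, 28.1 and 20.9 in 697, which span both arms, and 113 and 108 in Reh, which lie below both EK values and within the WT range. SNORA71D, a small nucleolar RNA that guides pseudouridylation, was at 0.74 ± 0.13 with EK above WT in all 5 pairs. Such genes exist in near-identical copies, so which copy gave the reads is uncertain, and the part of ribosomal depletion or library preparation was not tested.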
